A study of Canis lupus familiaris with 17 samples.

Results

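The 100 most abundant transcripts of the dog olfactory epithelium were taken as the 100 features with Ensembl-style dog gene IDs with the highest mean CPM over 17 libraries. CPM is the count of a feature divided by the total of its library, times a constant. The members were thus chosen by their measured mean CPM. They are 100 of the 32912 features in the deposited count table, of which 32704 carry Ensembl-style IDs. Each is called here by its rank in mean CPM, from 1 (26885 CPM) to 100 (756 CPM), because 0 of the feature IDs could be paired with a gene symbol in the gene table at hand. The features just inside the limit, ranks 98 to 100, had means of 764, 759 and 756 CPM, and those just outside it, ranks 101 to 103, had 749.9, 747 and 742 CPM. Counts were not divided by transcript length, so a rank gives the share of reads a feature took and not its number of RNA molecules. The mean CPM that chose the members is a description and was not tested.

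The tissue came from 17 dogs of several breeds, 1 library per dog, in a study of olfaction in dogs and wild canids. The labels put 10 dogs in scent code 0 (scent_0) and 7 in scent code 1 (scent_1), without saying what the codes mean, and 8 dogs in the weight class Below_10 (5 to 9.79 kg) and 9 in Over_10 (10.21 to 44 kg). In scent_0, 6 dogs were Below_10 and 4 Over_10, and in scent_1 2 were Below_10 and 5 Over_10. The Below_10 breeds were dachshund, Pomeranian, Jack Russell terrier, miniature schnauzer, Chinese crested, poodle and rat terrier. The Over_10 breeds were Doberman pinscher, cocker spaniel, beagle, bulldog terrier, German shepherd, Labrador retriever, English pointer and basset hound. Only dachshund and Labrador retriever were the label of 2 dogs. No breed was in both weight classes or both scent codes, so neither label can be told apart from breed. Labelled age ran from 0.5 to 14 with no unit, RNA integrity number (RIN) from 5.9 to 9.1, and batch from 1 to 6. No treatment or genetic change is labelled in any dog. RNA of 4 dogs was prepared in 2 rounds per the labels, which do not say for which dogs. Replicate numbers name dogs in accession order and pair none of them.

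The olfactory epithelium lines the upper nasal cavity. It holds ciliated sensory neurons, each of which uses odorant receptors to detect odours, sustentacular cells that support them and detoxify inhaled compounds, basal stem cells, and the mucus-secreting Bowman's glands. Respiratory epithelium with multiciliated and goblet cells borders it. The most abundant polyadenylated transcripts of most tissues come from a small set of sources, such as the mitochondrial genome, ribosomal protein genes and the products of secretory cells. Which members belong to these sources, and whether markers of the labelled tissue were present, was not analysed here because the features carry no names. In bulk tissue, fewer cells of a type and less RNA per cell cannot be told apart.

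Library totals ran from 10536639 to 31637925 counts. In 3 libraries a few features held more of the counts, and their TMM scaling factors (trimmed mean of M-values, which offset such imbalance) were the lowest, at 0.518 in scent_1 replicate 1 (dachshund, Below_10), 0.727 in scent_0 replicate 1 (Pomeranian, Below_10) and 0.757 in scent_0 replicate 3 (cocker spaniel, Over_10). Their RIN values were 5.9, 8 and 8.6 and their totals 31637925, 10599324 and 29240086 counts. The first and the last of them are among the 4 libraries that the labels mark as a first replicate. The dachshund and the Pomeranian are the only dogs of batch 1. Results below that rest on these 3 libraries are given with and without them.

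The members held 23.1% ± 7.15 (SD, n = 17) of the counts of a library, though they are 0.304% of the features. The 14 libraries with higher TMM factors lay close together, from 16.8% in scent_1 replicate 3 (dachshund) to 23.02% in scent_0 replicate 10 (rat terrier), with a median of 19.9%. The 3 libraries with low TMM factors lay apart from them, at 43.4% in the dachshund of batch 1, 35.0% in the cocker spaniel and 32.3% in the Pomeranian. The 95% Wilson intervals of these shares reach at most 0.0282 percentage points to either side, and they cover counting error only. With the members chosen anew for each dog from the other 16 dogs, 96 to 100 of them were the same features, and the shares ran from 16.8% to 42.7%.

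Ranks 1 to 10 took 17.5% to 24.7% of the counts in these 3 libraries and 5.72% to 9.92% in the other 14. Ranks 11 to 50 took 9.72% to 13.5% and 6.44% to 9.69%, also with no overlap. Ranks 51 to 100 took 4.78% to 5.23% and 4.13% to 5.21%, so that their ranges overlapped. The number of features that together reached 50% of a library was 126 in the dachshund of batch 1, 404 in the Pomeranian and 408 in the cocker spaniel, against 960 to 1256 in the other 14 libraries.

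**Figure D1:**
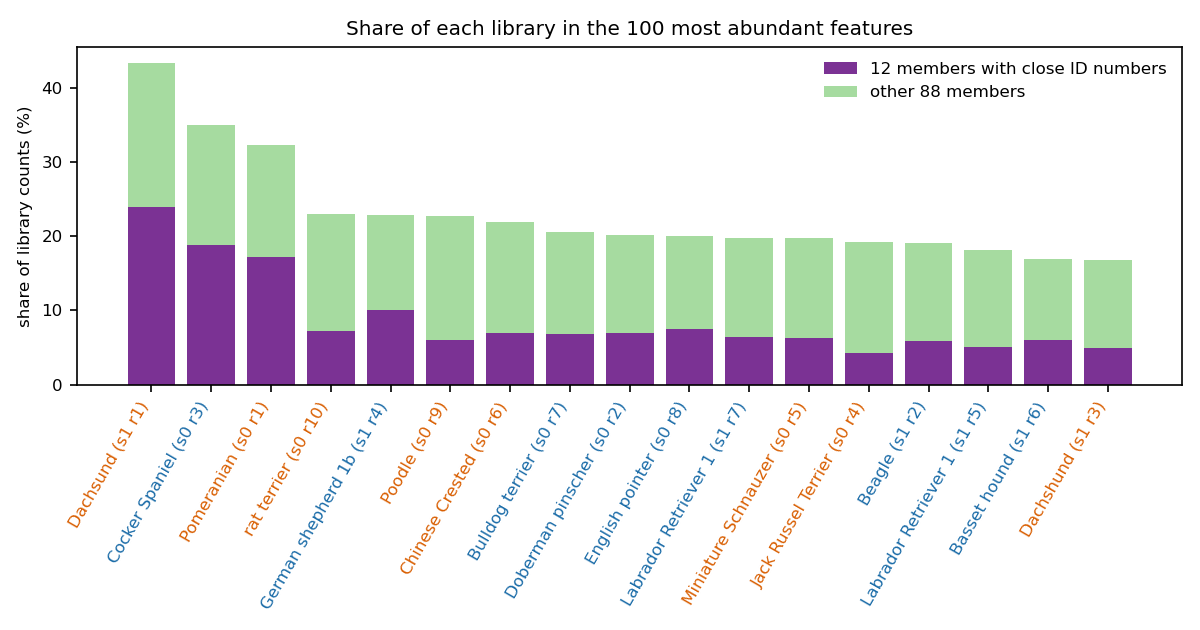
Percent of the counts of each library (vertical axis) in the 100 most abundant features, stacked as the 12 members with close ID numbers (purple) and the other 88 members (green), with dogs in order of the total and Below_10 dogs labelled in orange and Over_10 dogs in blue (s0 and s1 give the scent code, r the replicate). The 3 libraries on the left hold 32.3% to 43.4%, and their purple part (17.2% to 24.02%) is above that of every other dog (4.27% to 10.0%).

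A chain of 12 members stood out by their identifiers. Their ID numbers run from 22709 to 22742, with neighbours at most 10 apart, and the table holds a feature at each of the 34 numbers in this range. Of the 12, 11 were among the first 20 ranks (ranks 1, 2, 4, 5, 6, 11, 13, 14, 15, 18 and 19) and the other had rank 58. The other 22 features of the range had mean CPM from 0 to 517.5, with a median of 0.152. The range was set from the members themselves, after their ranks were known.

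These 12 members took 8.85% ± 5.62 (SD, n = 17) of the counts. They held 24.02%, 18.8% and 17.2% in the dachshund of batch 1, the cocker spaniel and the Pomeranian, and 4.27% (scent_0 replicate 4, Jack Russell terrier) to 10.0% (scent_1 replicate 4, German shepherd) in the other 14 dogs. The 12 thus made up 53.2% to 55.3% of all member counts in the 3 libraries and 22.1% to 43.8% in the others. The remaining 88 members differed less, with 15.1% to 19.4% in the 3 libraries and 10.9% to 16.7% in the others. Rank 1, a feature of this chain, led 14 of the 17 libraries and took between 1.23% (Jack Russell terrier) and 7.35% (dachshund of batch 1) of the counts. Rank 3, which is not in the chain, led the libraries of the Chinese crested, the poodle and the rat terrier, with 1.70%, 2.01% and 2.04%.

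Membership was shared by most dogs, but not evenly. Each library's own 100 leading features included 57 to 86 of the members, and 22 members were among them in every dog. In all, 259 different features were among the leading 100 of some dog. Of the members, 15 would have had a mean below the limit without the single dog in which they were highest.

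The median coefficient of variation of the members over dogs was 51.1% (from 12.4% to 230.3%). The lowest count of any member in any dog was 363 reads. The highest dog exceeded the lowest by a median of 5.89-fold, by over 10-fold in 30 members, and by under 2-fold in 9. On the scale log2(TMM-scaled CPM + 1) the median SD over the 17 dogs was 0.88 for the members, 0.71 for ranks 101 to 200 and 0.54 for all 16202 features that passed the low-count filter, as all 100 members did. Without the 3 libraries with low TMM factors these medians were 0.42, 0.34 and 0.34.

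The least variable member by this SD was rank 93 (0.20). It lay between 406 and 1141 CPM without TMM scaling, whereas the SD is that of the scaled values. Next was rank 37 (0.24), at 802 to 1593 CPM, with its lowest CPM in the dachshund of batch 1. After TMM scaling that dog had 1550.6, and the lowest value was 1100.6 in scent_0 replicate 4 (Jack Russell terrier). Without TMM scaling the log2 SD of rank 37 was 0.235, above that of rank 43 (0.170). At the other end was rank 48 (SD 2.27), at 13.1 CPM in the dachshund of batch 1, a median of 198 CPM, and 11148 CPM in scent_1 replicate 5, a Labrador retriever with the lowest labelled age and the only dog of batch 5. It was among the leading 100 features of 4 dogs only, and its mean without that Labrador was 607 CPM, under the limit for membership. Rank 54 (SD 2.10) ran from 30.2 CPM in scent_0 replicate 2 (Doberman pinscher) to 5112 CPM in scent_0 replicate 9 (poodle). These are not the same dogs as for rank 48, so no single library carried the spread of both.

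To see which members rise and fall together, the correlation of each pair over the 17 dogs was computed on log2(TMM-scaled CPM + 1), and members were joined into groups by average linkage up to a distance (1 minus Pearson's r) of 0.5. Of the 4950 pairs, 35.4% had r of at least 0.5 and 20.6% had r of at most -0.5, against 18.8% and 18.6% of the pairs among all features tested. These shares without the 3 libraries were 15.9% and 11.3% for the members and 10.9% and 10.5% for all features. The points of each correlation share their libraries and scaling factors, and the groups are a description of the same values. There were 5 groups of at least 5 members, which held 91 of the 100, besides 3 groups of 2 or 3 members (7 in all) and 2 members alone.

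Group 1 held 49 members, among them all 12 of the ID chain, and followed the 3 libraries with low TMM factors. Its mean log2 level was 11.7 to 12.6 in these 3 dogs and 10.1 to 10.6 in the other 14, with no overlap, and its share of the counts was 25.7% to 34.0% against 8.44% to 14.5%. The median r between its members was 0.82 over 17 dogs and 0.17 over the 14 others. Scaling divides by the TMM factor, so a low factor raises every scaled value of that library. On CPM without TMM scaling the median r over 17 dogs was 0.53, and 34 of the 49 members stayed in 1 group. With the 3 libraries left out, the largest set of its members that stayed in 1 group was 12. The 12 members of the ID chain kept a median r of 0.64 without them (0.95 with them), and 9 of them still formed 1 group with 3 other members.

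Group 3, with 12 members led by rank 22, moved opposite to group 1 in the 3 libraries. Its level was 8.25 to 9.78 in the 3 libraries and 9.99 to 10.5 in the other 14. Rank 22 had 388 CPM in the dachshund of batch 1, 544 in the Pomeranian and 1285 in the cocker spaniel, and 1692 to 4498 CPM in the other 14 dogs. Rank 29 fitted the same pattern, at 70.5, 308 and 971 CPM against 1899 to 2500 CPM. The levels of groups 1 and 3 had r = -0.90 over the 17 dogs. The median r between members of the 2 groups was -0.75 over 17 dogs and -0.04 over the other 14. The median r between the members of group 3 was 0.75, and 0.03 without the 3 libraries, and 3 of its members then stayed in 1 group. The part of RIN, depth and batch, given above for these 3 libraries, in groups 1 and 3 was not tested.

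**Figure D2:**
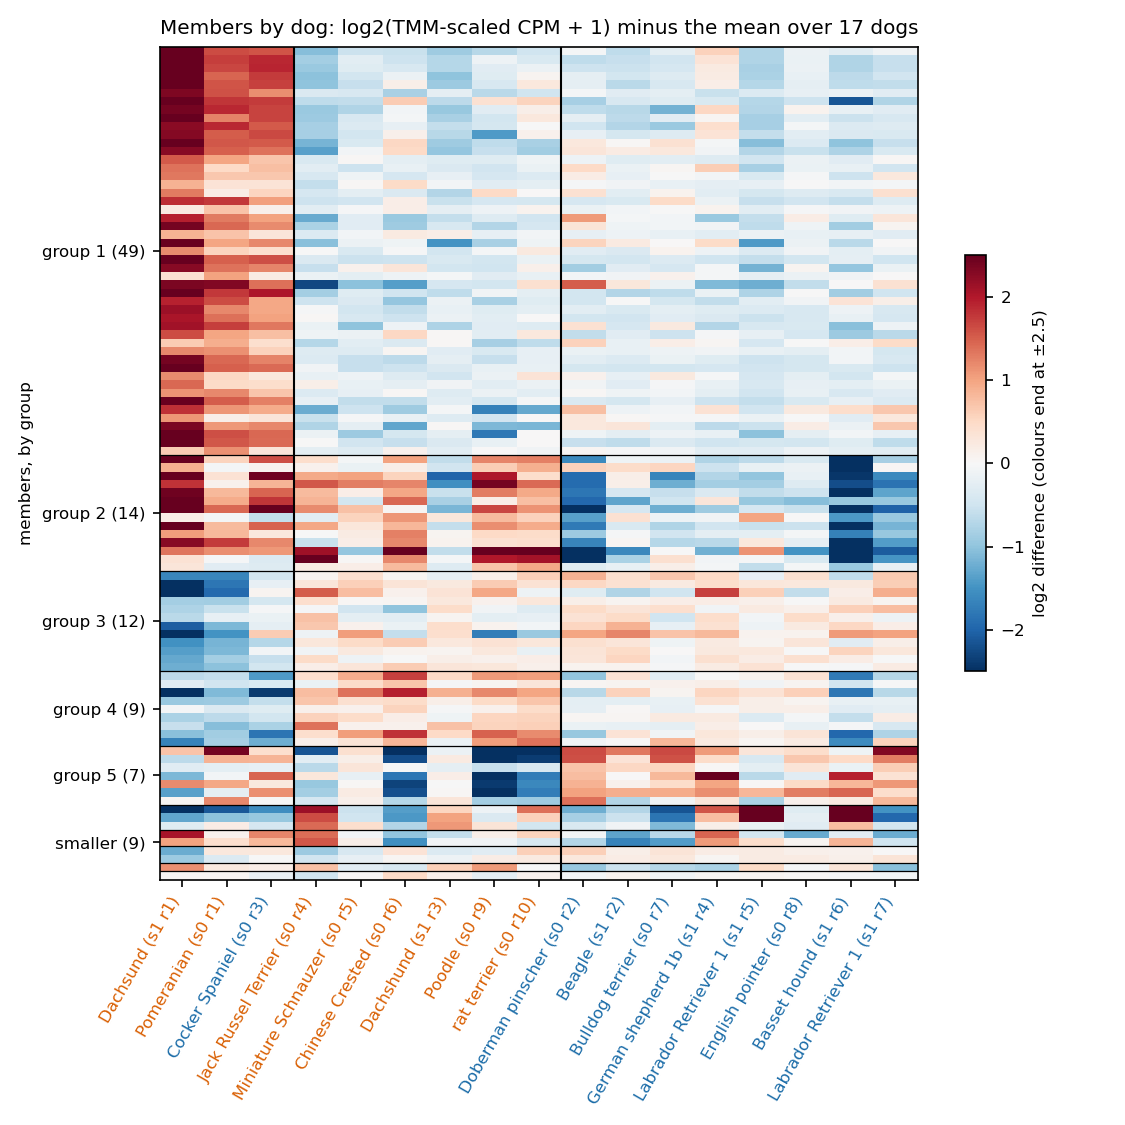
Level of each member (rows, ordered by group and then by rank, with the number of members in brackets) in each dog (columns), as log2(TMM-scaled CPM + 1) minus the mean of the member over 17 dogs. The 3 libraries with low TMM factors are at the left, then 6 Below_10 dogs (orange labels) and 8 Over_10 dogs (blue labels). Group 1 is high and groups 3 and 4 are low in the 3 libraries, while groups 2, 4 and 5 differ among the other 14 dogs.

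Groups 2, 4 and 5 varied among the other dogs as well. Group 2 (14 members, led by ranks 3, 9 and 16) took 0.608% of the counts in scent_1 replicate 6 (basset hound) and 7.90% in the poodle, with a median of 3.01%. Group 4 (9 members, led by ranks 28, 30 and 42) took 0.270% in the dachshund of batch 1 and 1.95% in the Chinese crested, with a median of 1.02%. It was low in all 3 libraries, at 0.270% to 0.383% against 0.558% to 1.95% in the other 14. Group 5 (7 members, led by ranks 8, 12 and 45) took 0.246% in the poodle and 3.32% in scent_1 replicate 7 (Labrador retriever), with a median of 1.34%. The median r within these groups was 0.73, 0.75 and 0.71 over 17 dogs and 0.79, 0.68 and 0.77 over the 14. The correlation within each group thus did not rest on the 3 libraries. The separation of group 2 from group 4 did, since most of their members fell into the same group over the 14 dogs.

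Over the 14 dogs, members of groups 2 and 4 rose and fell together (median r = 0.73) and opposite to those of group 5 (median r = -0.71 with group 2 and -0.63 with group 4). With the 3 libraries included these medians were 0.22, -0.54 and -0.47, and the last was -0.15 without scaling factors. Grouped over the 14 dogs alone, all 14 members of group 2 and 8 of the 9 of group 4 fell into 1 group of 26, and 6 of the 7 of group 5 into another of 15. The median r between these sets of 26 and 15 was -0.67.

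Among the 14 dogs outside the 3 libraries, the poodle, the Chinese crested and the rat terrier, all Below_10 dogs of scent_0, marked 1 end. Relative to the mean of 17 dogs, their group 5 levels were -2.26, -1.80 and -1.72 log2 units and their group 2 levels 1.29, 1.02 and 1.05. The dachshund of batch 1 had a higher group 2 level, 1.84, with group 5 at -0.21. The basset hound was at the other end for group 2, at -2.33 log2 units, with group 4 at -0.97 and group 5 at 0.67. Rank 8, the most abundant member of group 5, had 295, 370 and 384 CPM in the poodle, the Chinese crested and the rat terrier. It had 849 to 18550 CPM in the remaining 14 of all 17 dogs. Rank 3, the most abundant of group 2, had 20149, 16992 and 20355 CPM in those 3 dogs and 726 CPM in the basset hound. Its highest value of all was 25454 CPM in the dachshund of batch 1, and the cocker spaniel had 18250 CPM. Both ranks were thus above 1% of the counts of some libraries and under 0.1% of others.

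By weight class, the levels of group 4 were 10.1 to 10.7 in the 6 Below_10 dogs and 8.84 to 10.0 in the 8 Over_10 dogs outside the 3 libraries, with no overlap. The levels of group 5 were 7.93 to 10.3 and 10.0 to 11.3, and those of group 2 9.93 to 11.8 and 8.20 to 10.3, both with some overlap. In the 3 libraries this order broke: the 2 Below_10 dogs among them had group 4 levels of 8.85 (dachshund) and 9.05 (Pomeranian), each below those of 7 of the 9 Over_10 dogs.

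**Figure D3:**
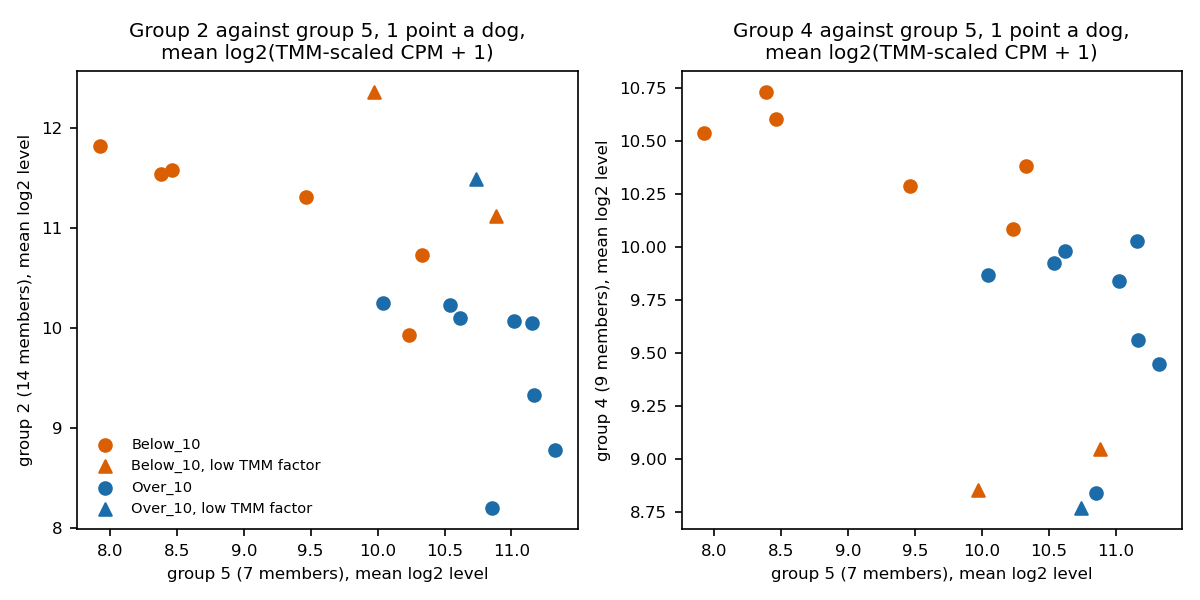
Mean log2 level of the 14 members of group 2 (left) and the 9 members of group 4 (right) against that of the 7 members of group 5, 1 point per dog, by weight class, with the 3 libraries of low TMM factor as triangles. Among the 14 dogs shown as circles, both groups fall as group 5 rises, and the triangles lie apart from that trend.

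A small group of 3 members (ranks 48, 49 and 51) stood outside these patterns. Ranks 48 and 49 were highest in the Labrador retriever of batch 5 (9879 and 7481 TMM-scaled CPM) and next in the basset hound (4543 and 4209), against medians over dogs of 181 and 353. Rank 51 was highest in the Jack Russell terrier, at 2778 TMM-scaled CPM against a median of 945.

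Whether the members differ with body weight class was tested on the counts of all 16202 features with edgeR's quasi-likelihood test, with batch and scent code in the model and Benjamini-Hochberg adjustment over all features. Of the 100 members, 6 were higher and 4 lower in Over_10 dogs at an adjusted p of 0.05, beside 5.33% and 3.61% of all features tested (8.94% either way), so the members were called about as often as features in general. The median fitted log2 change was 0.15 for the members and 0.03 for all features, and its median size was 0.53 against 0.32. Without the 3 libraries of low TMM factor the medians were 0.04 and 0.007, and the median sizes 0.33 and 0.30. The calls fell by group: 5 of the 6 higher members belonged to group 5 and the other to group 1, and of the 4 lower members 3 belonged to group 4 and 1 to group 2. All 7 members of group 5 had fitted values above 0 (median 2.13), and all 14 of group 2 and all 9 of group 4 had values below 0 (medians -0.83 and -0.59). These signs were the same with the other scaling factors tried, without scaling factors and without the batch term. Members were grouped by their correlation over these same dogs, so a sign shared within a group partly follows from the grouping. The members of a group do not count as separate observations. Batches 1 and 5 hold dogs of a single weight class, so with batch in the model they give no direct contrast of the classes. The ranges and medians by class below cover the dogs of all batches unless stated otherwise.

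Group 1 had 46 of 49 fitted values above 0 (median 0.45) in this model but 2 of 49 (median -0.49) without the batch term. It had 40 of 49 without the 3 libraries (median 0.20). Its direction with weight class thus turned with the batch term, and 2 of the 3 libraries in which it is high are the only dogs of batch 1.

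Among the higher members, rank 68 (ENSCAFG00000028508) had the smallest p. It lay at 825 to 1696 TMM-scaled CPM (median 1123.5) in 9 Over_10 dogs and at 152 to 1834 (median 609) in 8 Below_10 dogs. The fitted log2 change was 1.75 ± 0.34 (SE; edgeR adjusted p = 0.0226). The classes overlapped through the 2 Below_10 dogs of batch 1, since the other 6 reached at most 824. Without the batch term the log2 change was 0.62 (edgeR adjusted p = 0.411).

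Rank 87 (ENSCAFG00000002437) in group 1 behaved alike. Its range was 518 to 1379 TMM-scaled CPM (median 935) in Over_10 and 225 to 2567 (median 451) in Below_10 dogs, with a log2 change of 1.26 ± 0.25 (edgeR adjusted p = 0.0226). The 2 dogs of batch 1 had the highest values of all, and without the batch term the log2 change was 0.18 (edgeR adjusted p = 0.829).

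Rank 74 was the only member whose classes did not overlap, beside 0.599% of all features higher and 0.16% lower in Over_10 without overlap. Among the 14 dogs outside the 3 libraries, 2 members were higher (ranks 68 and 74; 2.86% of all features) and 4 lower (ranks 28, 42, 44 and 89; 2.03%) without overlap. Over all 17 dogs, rank 74 had 894 to 1801 TMM-scaled CPM (median 1316) in Over_10 and 80.3 to 755 (median 309) in Below_10 dogs, and a log2 change of 2.31 ± 0.47 (edgeR adjusted p = 0.0230). This call held without the batch term (log2 change 1.81, edgeR adjusted p = 0.0421).

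The other 3 higher members were ranks 66, 12 and 8, all in group 5, with log2 changes of 2.13, 2.27 and 2.96 and edgeR adjusted p of 0.0258, 0.0311 and 0.0442. Rank 8 had medians of 7206 TMM-scaled CPM in Over_10 and 1949 in Below_10 dogs, but the Pomeranian, a Below_10 dog, had the highest value of all 17 (18163). Its log2 change without the batch term was 0.90 (edgeR adjusted p = 0.504), and those of ranks 66 and 12 were 1.60 and 1.31 (edgeR adjusted p = 0.124 and 0.150).

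Among the lower members, rank 28 (ENSCAFG00000003692) in group 4 had the smallest p. It lay at 434 to 1905 TMM-scaled CPM (median 1216) in Over_10 and at 944 to 4840 (median 2429) in Below_10 dogs, a log2 change of -1.36 ± 0.33 (edgeR adjusted p = 0.0306). Rank 89 (ENSCAFG00000024864), also in group 4, lay at 151 to 746 (median 558) and 285 to 2076 (median 1023), a log2 change of -1.48 ± 0.36 (edgeR adjusted p = 0.0319). In both, the 2 Below_10 dogs of batch 1 were the lowest of their class, and the other 6 (from 1980 and 790 upward) were above every Over_10 dog. Ranks 88 and 39 had log2 changes of -0.89 and -0.97 (edgeR adjusted p = 0.0429 and 0.0495). Without the 3 libraries the 4 lower members had log2 changes of -1.17, -1.22, -0.70 and -0.98 in this order and edgeR adjusted p of 0.0660, 0.0724, 0.0812 and 0.0714. Without the batch term the value for rank 88 was -0.60 (edgeR adjusted p = 0.260), and none of the 4 passed.

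**Figure D4:**
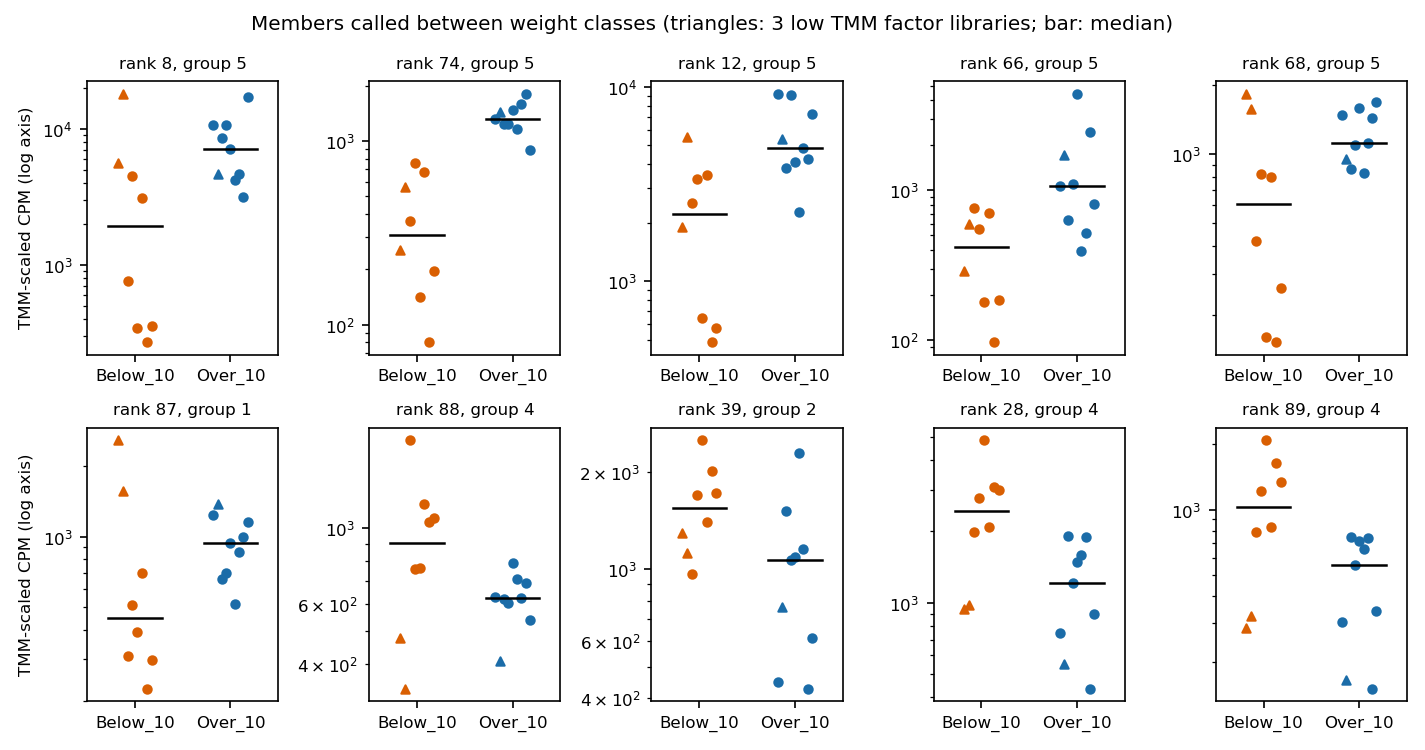
TMM-scaled CPM (log axis, different in each panel) of the 10 members called between weight classes, 1 point per dog with the median of each class as a bar and the 3 libraries of low TMM factor as triangles. The first 6 panels are higher and the last 4 lower in Over_10 dogs in the fitted model, and only rank 74 shows no overlap (at most 755 in Below_10, at least 894 in Over_10).

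In each of the 4 batches that hold both weight classes (2, 3, 4 and 6), all 10 called members differed in the fitted direction, on the data that selected them. The number of calls varied with the dog left out, over all features as well as among the members. With the bulldog terrier (scent_0 replicate 7) left out edgeR called 0 members and 1 of 16117 features, while 21 members and 3429 features had an unadjusted p under 0.05. With the poodle (scent_0 replicate 9) left out it called 0 members and 125 of 16068 features, while 23 members and 3596 features had such a p. Without scent_0 replicates 6 (Chinese crested), 10 (rat terrier), 2 (Doberman pinscher) and 4 (Jack Russell terrier), 1, 2, 3 and 4 members were called higher and 0 lower, beside 129, 410, 195 and 381 of all features. With any other dog left out, 4 to 8 of the 100 members were called higher and 1 to 6 lower, not always the same ones. Each of the 10 members was called in 2 (rank 88) to 14 (ranks 68 and 87) of the 17 fits and had the same direction in all of them. The fit without scent_1 replicate 5 (Labrador retriever), the only dog of batch 5, could hardly differ, since the term for its batch takes up its value. It called 6 members higher and 4 lower, as with all dogs. The log2 change ran from 1.53 to 2.01 for rank 68, from 2.04 to 2.61 for rank 74 and from -1.67 to -1.21 for rank 28.

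The scent code was tested in the same model, beside batch and weight class. No member passed edgeR's test, where 0 of all features did (0% called). At an unadjusted p under 0.05 there was 1 member with edgeR, beside 288 of 16202 features. DESeq2 called 9 of 27482 features and 0 members, with 590 features and 2 members at such a p. The member with such a p in edgeR, rank 59, had a log2 change of -0.74 ± 0.32 in scent_1 (edgeR p = 0.0368, adjusted p = 1.00). The median fitted log2 change of the members was -0.12, and -0.02 over all features. With labelled age added to the model, 0 members were called against age (0% of all features), with 3 members and 686 of 16202 features at an unadjusted p under 0.05 in edgeR. DESeq2 called 93 of 21621 features and 0 members, with 1096 features and 5 members at such a p. The smallest p was that of rank 56, at -0.20 ± 0.07 log2 units per unit of labelled age (edgeR p = 0.0142, adjusted p = 0.897).

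The share of the library in the members was compared over dogs. It was 21.4% ± 5.36 (SD, n = 9) in Over_10 and 24.9% ± 8.76 (n = 8) in Below_10 dogs, a difference smaller than the spread between dogs (two-sided exact permutation p = 0.330, adjusted p = 0.983 over 4 tests). Within batches the difference was 1.47 percentage points the other way (exact permutation p = 0.700, 360 splits). Batches 2 and 4 gave 8.09 and 6.11, batches 3 and 6 -2.03 and -3.97. Without the 3 libraries the means were 19.7% ± 1.76 (n = 8) and 20.6% ± 2.40 (n = 6; exact permutation p = 0.449).

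By scent code the share was 22.5% ± 9.46 (n = 7) in scent_1 and 23.5% ± 5.55 (n = 10) in scent_0, again within the spread (adjusted p = 0.983; exact permutation p = 0.803). The difference within batches was -0.05 percentage points (exact permutation p = 0.983, 60 splits), made up of 11.1 in batch 1, where the 2 dogs are both among the 3 libraries, -2.11 in batch 3 and -3.56 in batch 6. Without the 3 libraries the means were 19.0% ± 2.27 (n = 6) and 20.9% ± 1.42 (n = 8; exact permutation p = 0.0733).

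The 88 members outside the ID chain took 13.3% ± 1.38 (n = 9) in Over_10 and 15.3% ± 2.19 (n = 8) in Below_10 dogs. This did not pass adjustment over the 8 tests of the chain and the other members, a split made after the data were seen (exact permutation p = 0.0310; adjusted, 0.248). The within-batch value was -1.38 percentage points (exact permutation p = 0.128; adjusted, 0.496). The 12 members of the chain took 8.17% ± 4.23 and 9.61% ± 7.10 (exact permutation p = 0.661, adjusted p = 0.881).

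Because the 3 libraries form a separate range of shares, relations of the share with other labels are given over the other 14 dogs. The share was higher at lower RIN (Pearson's r = -0.55, permutation p = 0.0405, adjusted p = 0.162 over 4 relations; Spearman's rho = -0.63, permutation p = 0.0184, adjusted p = 0.0737), which did not pass. Without the 2 dogs farthest from the median RIN r was -0.49 (permutation p = 0.109). For labelled age r was 0.18 (rho = 0.21), for the log2 library total -0.32 (rho = -0.37) and for log2 weight -0.14 (rho = -0.0022), with permutation p of 0.539, 0.293 and 0.635 (0.461, 0.194 and 1.00 for rho) and adjusted p from 0.586 to 0.635 (0.388 to 1.00 for rho).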

How the data were processed

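Polyadenylated RNA of the olfactory epithelium of 17 dogs was sequenced as paired-end reads from KAPA mRNA HyperPrep libraries, per the labels' protocols. The deposited count table holds the authors' whole-number reads per feature, without normalization. A further deposited table of log2 values by the authors (16917 features, batch effect taken out according to its name) served only as an alternative. Per the submitters' processing notes, which give no roles, the tools were HTSeq, STAR 2.5.3, DESeq2, limma, Trim Galore 0.3.1 and edgeR. The build and the annotation were not given in the sources used here.

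CPM used library totals alone. Of all features, filterByExpr (minimum count 10) kept 16202, which were TMM-scaled and tested with edgeR 4.0.16 (robust quasi-likelihood F-test, R 4.3.3) on batch, scent and weight class (9 residual degrees of freedom, 8 with age), with Benjamini-Hochberg adjustment and calls at 0.05. The SE printed with an edgeR log2 change was computed as the size of the change divided by the square root of F. DESeq2 1.42.0, limma 3.58.1, other scalings, models and sets of dogs were alternatives. Spread and grouping used log2(TMM-scaled CPM + 1). Two-sided exact permutation tests served for shares (Python 3.11.15, scipy 1.17.1). The relation of the share with other labels had been planned over 17 dogs. The tests were checked on simulated data. P-values take the dog as the unit and set an effect against the variation between dogs. With batch in the model or splits kept within batches, this is the variation between dogs of the same batch.

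Members, groups of dogs and tests were chosen with earlier results of these data known. Members are named by rank. The IDs printed are the 2 higher and the 2 lower called members with the smallest p. The ranks described were to be the 10 most abundant, the 5 most and 5 least variable, the leading 3 of each group and up to 5 called members each way, but not all are printed. The files do not pair IDs with names, so the planned marker lists were not used.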

Additional observations from a re-analysis of the deposited data

Results flagged for a closer look

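Among 42 sets of values, 7 held a dog whose gap to the nearest other dog was large for the range of its group, where chance gives about 1 in 20. All 7 concern the 3 libraries with low TMM factors, 6 of them the cocker spaniel or the dachshund of batch 1 and the other the Pomeranian.

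The cocker spaniel (scent_0 replicate 3) stood above the other 8 Over_10 dogs in the share of all members (35.0%, next 22.95%), in the share of the 12 members of the ID chain (18.8%, next 10.0%) and in the mean log2 level of group 1 (11.7, next 10.6). The dachshund of batch 1 (scent_1 replicate 1) stood above the other 6 scent_1 dogs in the share of all members (43.4%, next 22.95%), of the chain (24.02%, next 10.0%) and of the other 88 members (19.4%, next 13.3%). The Pomeranian (scent_0 replicate 1) stood above the other 7 Below_10 dogs for rank 8, with 18163 TMM-scaled CPM against 5685 in the next dog.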

How the results depend on the processing

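Of the 100 members, 6 were called higher and 4 lower in Over_10 dogs. DESeq2 called 11 and 10 (1635 and 1531 of all 18424 features), limma on the deposited log2 values 7 and 8 (1490 and 1124 of 16917), and edgeR without the 3 libraries of low TMM factor 6 and 1, without the batch term 1 and 0, and on library totals without scaling factors 3 and 1 (an alternative chosen after seeing the data). Over all features that last fit called 182 higher and 271 lower, against 863 and 585, and the fit without the batch term called 168 in all. Leaving out 1 dog at a time gave 0 to 8 members higher and 0 to 6 lower, beside 1 to 1985 of all features called. With other scaling factors or no low-count filter the counts stayed within 1.5 times. The direction of the 10 called members held in all 24 alternatives, and 0 members were called by scent code or age in any.

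The share difference by weight class kept its sign over all splits. Within batches it turned from 1.47 to -0.81 percentage points without the 3 libraries, and ran from -0.81 to 2.34 when 1 dog was left out. By scent code it ran from -4.51 to 0.26, and within batches from -3.03 to 1.26. With members chosen by median CPM or by TMM-scaled CPM the latter was 0.0223 and 0.119. Without the 3 libraries the share of the 12 members of the ID chain differed by 0.89 (from -1.45) by weight class, and by -0.11 (from 0.10) and within batches -0.82 (from 0.78) by scent code, while the other 88 members differed by -1.75 by weight class (exact permutation p = 0.0266; within batches -1.82, p = 0.0278) and by -1.85 by scent code (exact permutation p = 0.0167; within batches -2.21, p = 0.167), with no adjustment.

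Of the 49 members of group 1, 28 stayed together with Spearman's rho and 12 without the 3 libraries. Of the 12 of group 3, 4 did so with Spearman's rho, and 3 both without the 3 libraries and with batch means taken out. Of the 7 of group 5, 4 did so with Spearman's rho. Groups 2 and 4 stayed within 1.5 times in the 6 alternatives. These counts do not show whether a group stayed apart from others. On CPM without TMM scaling all 9 members of group 4 and all 12 of group 3 fell into 1 group of 27. The cause of these changes was not tested. No paired analysis was possible because replicate numbers only follow accession order.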
